A study of Mus musculus with 36 samples.

Results

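Atf4, Eif4ebp1 and Sesn2 were followed through 3 of the 27288 rows of a mouse RNA-seq table, read in all 36 libraries. The rows are those whose contents were inferred to include Atf4, the transcription factor of the integrated stress response, and Eif4ebp1 and Sesn2, which code for brakes on mTORC1 signalling and its output. They were chosen because they differed between cultures with and without homocysteic acid (HCA), so their differences with HCA are given as a description, without a test. All 3 rows passed the filter on low counts. The libraries came from primary cortical neuron cultures of E15 CD1 mice, an outbred strain, kept for 24 h after plating before a treatment of 6 h. The 6 groups, each with 1 library from every one of 6 culture batches, were untreated control, sodium selenite at 0.1 (Se0.1), selenite at 1 (Se1), 5 mM HCA, HCA with selenite at 0.1 (HCA+Se0.1) and HCA with selenite at 1 (HCA+Se1). The labels give the selenite doses in one place in mM and in another in micromolar, so they carry no unit here. The sample labels spell HCA out as homocysteic acid, while the series text describes it as an inhibitor of ferroptosis.

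Homocysteic acid is a glutamate analogue that competes with cystine for import into the cell, and selenite supplies selenium for selenoproteins such as glutathione peroxidases. When amino acids run short, uncharged tRNA activates the kinase Gcn2, which phosphorylates the initiation factor eIF2. General translation then falls, while translation of Atf4 mRNA rises, and Atf4 switches on genes for amino acid uptake, amino acid synthesis and tRNA charging. Eif4ebp1 and Sesn2 are known Atf4 targets. The Eif4ebp1 protein, 4E-BP1, binds the cap-binding protein eIF4E and blocks initiation unless mTORC1 phosphorylates it. Sestrin 2 senses leucine and binds GATOR2, which keeps mTORC1 off when leucine is scarce. Protein, phosphorylation and translation were not measured here, and Atf4 itself is controlled to a large part at translation.

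The genes are not named by the deposited row identifiers but by inference. Values in the table appeared to sit 1 place away from their identifiers when transcripts are sorted by transcript identifier, so that a row holds the transcripts standing just before those of its labelled gene. Mitochondrial genes illustrate this. Under the shifted reading 13 of 13 mitochondrial coding transcripts had a row, with median counts per library of 155 to 35019, whereas with identifiers read as deposited 4 of 13 did. The row of the tRNA mt-Ts1 then holds mt-Co1, a cytochrome c oxidase subunit, with a median of 35019 counts, and the row labelled mt-Co1 had 40.5.

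The 3 rows differ in how purely they stand for their gene. The Eif4ebp1 row, deposited as ENSMUSG00000031491 (Chrna6), holds the single transcript Eif4ebp1-201 of 1997 bases and nothing else. Eif4ebp1 lies on the plus strand at chr8:27260329-27276674 (GRCm38, GENCODE vM21). The Atf4 row, deposited as ENSMUSG00000021589 (Rhobtb3), sums 5 transcripts of which 3 are coding. They are Atf4-201, of 1725 bases at chr15:80255184-80257541 on the plus strand, Npr2-203 from the natriuretic peptide receptor gene Npr2, and Pcsk1-201 from the prohormone convertase gene Pcsk1. The Sesn2 row, deposited as ENSMUSG00000028896 (Rcc1), sums 8 transcripts with 5 coding genes. They are Sesn2-201, the single annotated Sesn2 transcript, of 3475 bases at chr4:132492032-132510501 on the minus strand, together with Phactr4-202, Tnnt3-212, Pdlim7-206 and Zscan2-204. Within a mixed row the counts of one gene cannot be told apart from those of the others, so the text speaks of the Atf4 row and the Sesn2 row.

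The sequences just before the transcription start are shown for the members that RefSeq's table on GRCm38.p6 holds, 2 of the 3. They are given because Atf4 acts through DNA motifs. Letters are in lower case, 5′ to 3′ on the gene's strand, with the CCAAT box (CCAAT, or ATTGG where it lies on the other strand) in capitals. The Atf4 window is chr15:80254934-80255183 on the plus strand, and the Sesn2 window is chr4:132510502-132510706 on the minus strand.
Atf4: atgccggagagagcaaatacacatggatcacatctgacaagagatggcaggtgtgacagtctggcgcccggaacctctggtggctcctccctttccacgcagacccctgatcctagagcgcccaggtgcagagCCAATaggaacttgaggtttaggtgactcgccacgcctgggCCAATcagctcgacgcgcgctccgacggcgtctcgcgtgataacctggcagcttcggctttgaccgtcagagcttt
Sesn2: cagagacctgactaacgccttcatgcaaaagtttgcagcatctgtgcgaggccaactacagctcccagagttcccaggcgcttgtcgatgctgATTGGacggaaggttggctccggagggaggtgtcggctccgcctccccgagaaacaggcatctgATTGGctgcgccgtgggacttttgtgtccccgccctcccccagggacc
Each window held 2 CCAAT boxes, and at least 1 was found in 33.8% and 29.2% of 32851 promoter windows of these lengths (250 and 205 bases). On either strand, neither window held the C/EBP-ATF response element TGATGNAA, found in 3.45% and 2.80% of windows of the same lengths. Neither held the cyclic AMP response element TGACGTCA (1.55% and 0.877%) nor the antioxidant response element TGACNNNGC (10.2% and 7.90%). TGACGTCA and TGACNNNGC begin with the same letters, so their matches can overlap elsewhere. The absence of a match says only that those letters are not in this stretch.

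Libraries held 34.3 to 56.9 M estimated counts, of which ribosomal RNA rows took between 1.70% and 88.6%. These are rows with transcripts of ribosomal RNA type or of genes on a separate list of ribosomal RNA loci. That share was 76.2% ± 15.2 (SD, n = 6) in control, 58.5% ± 29.6 in Se0.1, 37.4% ± 30.4 in Se1, 45.7% ± 30.0 in HCA, 55.8% ± 21.1 in HCA+Se0.1 and 33.4% ± 27.4 in HCA+Se1. Counts outside these rows ranged from 4.95 to 52.6 M and TMM normalization factors from 0.0309 to 4.19. Control replicates 5 and 6 and Se0.1 replicate 5 stood apart from the other libraries, with the 3 lowest factors. The least covered library, Se0.1 replicate 5, had 49 counts in the Atf4 row, 3.06 in the Eif4ebp1 row and 9.72 in the Sesn2 row, so its values carry the largest counting error. Of 20 neuronal markers 11 were measured, and their summed level was 647 to 1361 CPM (counts scaled to a common library size) without HCA and 852 to 1455 CPM with it, so RNA of the labelled cell type was present in every library. Of these, Gad1, the glutamate decarboxylase of inhibitory neurons, rose from 10.5 ± 3.79 to 18.5 ± 4.66 CPM (SD, n = 18), by 0.85 ± 0.15 (log2, SE; edgeR adjusted p = 7.7e-04). Astrocyte markers (4 of 8 measured, none with a median of 0) summed to 25.9 to 54.3 CPM without HCA and 13.2 to 40.6 CPM with HCA. Of these, Slc1a3 fell by 0.68 (log2) and Slc1a2 fell by 0.51 (edgeR adjusted p = 0.0389 and 0.0298). The 1 other row of Slc1a3 had 0.16 and the 5 other rows of Slc1a2 -0.46 to 0.25, none called. Progenitor markers (3 of 7 measured, 0 called) summed to 38.1 to 93.5 CPM without HCA and 32.4 to 45.1 CPM with HCA. Of these, Hes5 had -0.87 and Nes -0.76, each higher in 1 of 6 batches. Pax6 went the other way, at 0.76 and higher in 6 of 6 batches. Vascular and fibroblast markers (3 of 7 measured, 0 called) varied widely, with sums of 6.19 to 196 CPM without HCA and 9.1 to 270 CPM with HCA. Microglia markers (3 of 8 measured, 0 called) had differences of -0.29 to -0.06. Oligodendrocyte lineage markers (4 of 8 measured) summed to 5.23 to 15.0 CPM without HCA and 5.47 to 16.7 CPM with HCA. Of these, Olig2 fell by 0.71 (edgeR adjusted p = 0.0040). Cspg4, with the highest level of the 4, had 0.27, Sox10 -0.18 and Mbp -0.40, none of them called. The part of these cell populations in the results was not tested. In these bulk samples, fewer cells of a type and less RNA per cell cannot be told apart.

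In the Atf4 row the levels were 27.9, 36.7 and 46.6 CPM (lowest, median and highest of 6) in control, 36.6, 40.4 and 47.7 in Se0.1, and 37.6, 40.5 and 49.0 in Se1. With HCA they were 88.5, 110 and 120 CPM alone, 90.8, 108 and 121 in HCA+Se0.1, and 95, 119 and 127 in HCA+Se1. Every library with HCA lay above every library without it, and within each set of 3 groups the ranges overlapped. The fitted difference with HCA was 1.49 ± 0.13 (log2, SE) without selenite, 1.38 ± 0.13 at Se0.1 and 1.43 ± 0.13 at Se1, which is 2.81-fold, 2.59-fold and 2.69-fold. Averaged over the selenite levels it was 1.43 ± 0.08. It was 1.38 ± 0.07 without the 3 libraries that stood apart.

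The Eif4ebp1 row, which holds only the mRNA of this translation repressor, had 3.35, 4.32 and 4.85 CPM in control, 2.24, 3.56 and 3.86 in Se0.1, and 3.04, 3.92 and 5.92 in Se1. With HCA it had 7.59, 11 and 17.5 CPM alone, 7.40, 10.7 and 15.4 in HCA+Se0.1, and 7.52, 12.6 and 15.1 in HCA+Se1. All libraries with HCA again lay above all libraries without, although the lowest with HCA (7.40 CPM) stood close to the highest without (5.92 CPM). The fitted difference was 1.44 ± 0.23 without selenite, 1.69 ± 0.23 at Se0.1 and 1.48 ± 0.22 at Se1, or 2.72-fold, 3.22-fold and 2.79-fold. The average was 1.54 ± 0.13, and 1.55 ± 0.14 without the 3 libraries that stood apart.

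The Sesn2 row, with the leucine sensor, had 5.53, 6.30 and 9.41 CPM in control, 4.98, 6.23 and 7.52 in Se0.1, and 4.61, 6.26 and 8.48 in Se1. With HCA it had 16.8, 19.5 and 22.5 CPM alone, 14.2, 20.2 and 22.7 in HCA+Se0.1, and 16.6, 19.8 and 22.9 in HCA+Se1. The 18 libraries with HCA lay between 14.2 and 22.9 CPM and the 18 without between 4.61 and 9.41 CPM, with no overlap. The fitted difference was 1.48 ± 0.16 without selenite, 1.67 ± 0.17 at Se0.1 and 1.64 ± 0.16 at Se1, or 2.79-fold, 3.18-fold and 3.12-fold. The average was 1.60 ± 0.09, and 1.63 ± 0.10 without the 3 libraries that stood apart.

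Complete separation of the 18 libraries with HCA from the 18 without was seen, upward, in 28 of 25588 rows tested (0.109%), the 3 rows among them. Separation within one selenite level was found in 0.606% of rows without selenite, 0.574% at Se0.1 and 0.453% at Se1. The rows were chosen on these differences, so nothing is read from their place in those counts. CPM in different rows depend on transcript length and on the other transcripts held, so the levels of the 3 rows are not compared with each other.

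**Figure D1:**
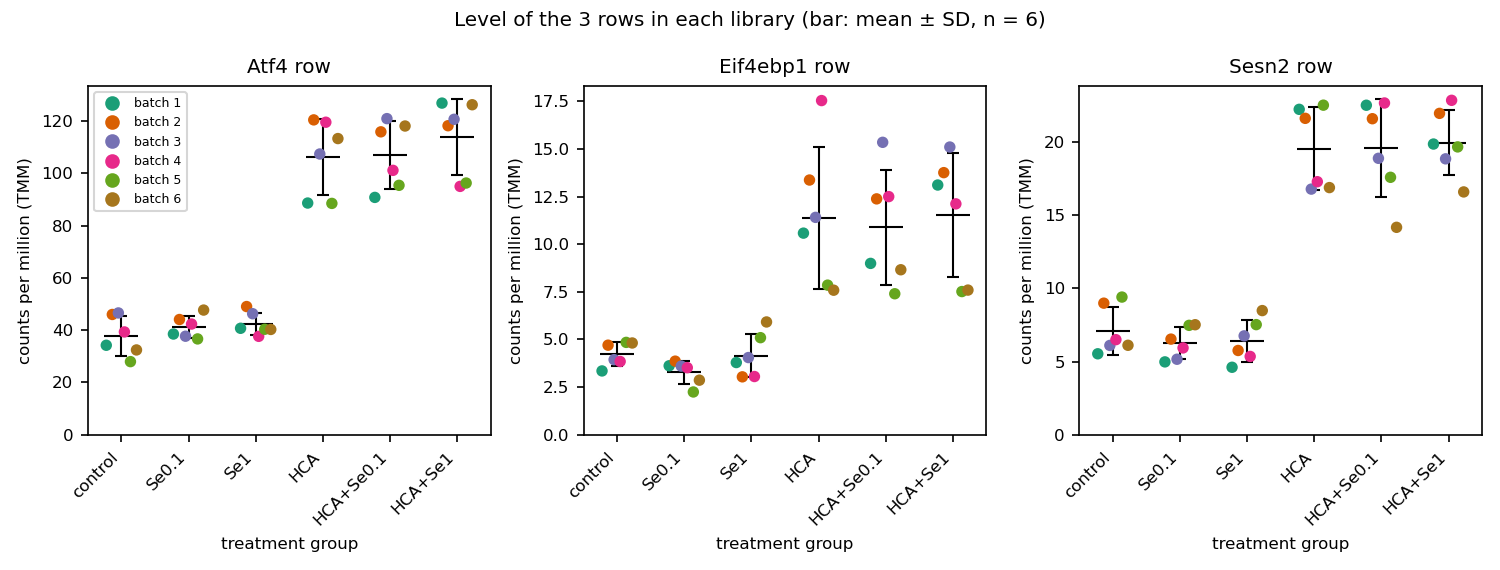
Level of the Atf4, Eif4ebp1 and Sesn2 rows in each of 36 libraries, in TMM-scaled CPM on a linear axis from 0, by treatment group, with a colour for each culture batch and the mean ± SD of 6 libraries as a bar. In each panel all 18 points with HCA lie above all 18 points without, and the 3 groups on either side overlap.

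The size of the HCA difference varied between culture batches by different amounts in the 3 rows, although it was positive in 6 of 6 batches for each row at each selenite level. In the Atf4 row the averaged difference ranged from 1.35 to 1.59 over batches (SD 0.08). In the Sesn2 row it ranged from 1.11 in batch 6 to 2.09 in batch 1 (SD 0.35). The Eif4ebp1 row had the widest range, from 0.87 in batch 6 to 1.99 in batch 4 (SD 0.47). In batches 5 and 6 its difference was 0.69 and 0.65 without selenite and 0.56 and 0.36 at Se1, against 1.5 to 2.18 and 1.78 to 2.17 in the other batches. At Se0.1 the same batches had 1.71 and 1.59, within the range of the rest. The Se0.1 libraries of batches 5 and 6 had 2.24 and 2.86 CPM, the lowest of that group, and the first of these rests on 3.06 counts. The control libraries of batches 5 and 6, which rest on 17.0 and 25.9 counts of the Eif4ebp1 row, had 4.85 and 4.81 CPM. The Se1 libraries of these batches had 5.09 and 5.92 CPM, the highest of that group. All libraries with HCA from batches 5 and 6 lay at 7.40 to 8.66 CPM, resting on 201 to 1700 counts. Those with HCA from batches 1 to 4 lay higher, at 8.99 to 17.5 CPM. This contrast among batches was noticed in the values and was not tested. The SEs given for the 3 rows come from a fit that treats the 36 libraries as independent. They make no allowance for the spread of the HCA difference between batches.

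**Figure D2:**
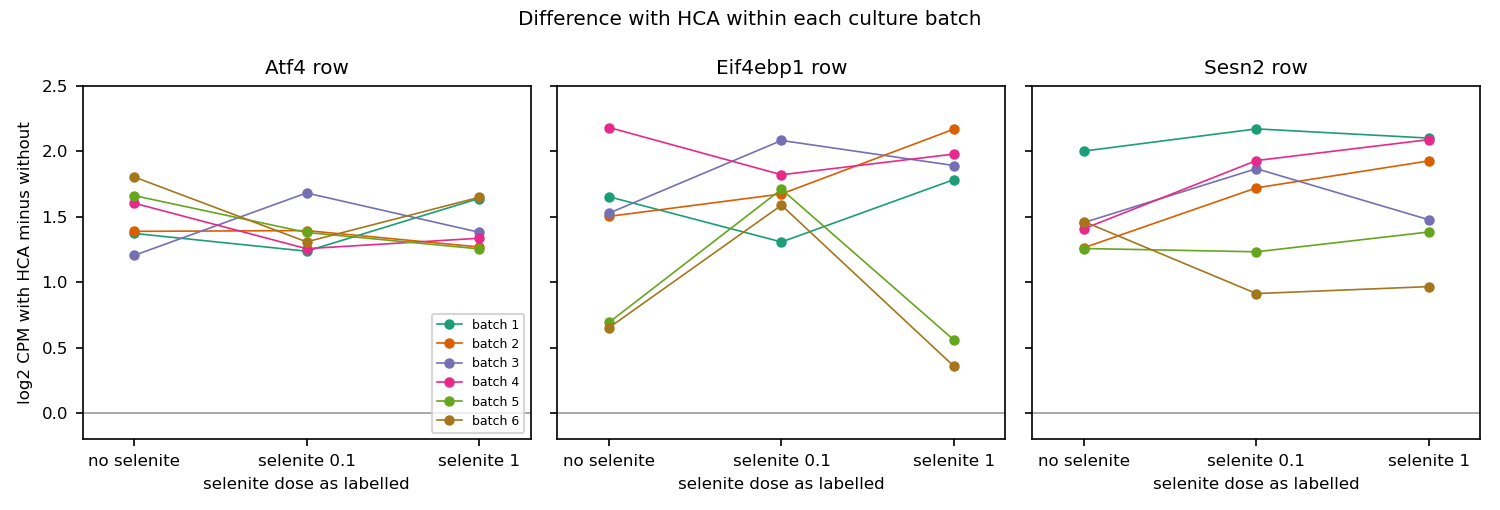
Difference in log2 CPM between the library with HCA and the library without it from the same culture batch, at each selenite dose as labelled, for the 3 rows, with 1 line for each of 6 batches. Every point is above 0, the lowest being 0.36 for the Eif4ebp1 row in batch 6 at Se1.

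Within groups, no relation between the rows passed a test. After subtracting the group means of log2 CPM, the correlation over 36 libraries was Pearson r = 0.21 and Spearman rho = 0.21 for Atf4 and Eif4ebp1 (permutation p = 0.23 and 0.23). It was r = -0.18 and rho = -0.13 for Atf4 and Sesn2 (permutation p = 0.34 and 0.48), and r = 0.27 and rho = 0.29 for Eif4ebp1 and Sesn2 (permutation p = 0.11 and 0.082). Over the 6 relations computed, which include each row against log2 counts outside ribosomal RNA rows (r = 0.22, 0.14 and -0.01), the lowest adjusted permutation p was 0.46 for r and 0.47 for rho. Without the 2 libraries farthest from the median on the first measure, r was 0.30, -0.04 and 0.24 for the 3 pairs. With batch means removed as well, r was -0.06, -0.18 and 0.44.

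Selenite, on which the rows were not chosen, left no detected difference in any of the 3 rows. Against control, the Atf4 row differed by 0.12 (95% interval -0.14 to 0.39) at Se0.1 and by 0.16 (-0.10 to 0.43) at Se1, on the log2 scale. The Eif4ebp1 row differed by -0.31 (-0.78 to 0.16) and -0.02 (-0.48 to 0.43), and was lower at Se0.1 in 5 of 6 batches. The Sesn2 row differed by -0.19 (-0.53 to 0.15) and -0.14 (-0.46 to 0.19), and was lower at Se0.1 in 5 of 6 batches and at Se1 in 4 of 6. These intervals leave room for a difference of the Eif4ebp1 row in Se0.1 down to -0.78. For the Sesn2 row edgeR's test gave unadjusted p = 0.430 at Se0.1 and 0.752 at Se1. Both are larger than its intervals imply, so those intervals may be too narrow.

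On top of HCA, selenite left no detected difference in the rows either. The Atf4 row differed by 0.01 (-0.25 to 0.27) in HCA+Se0.1 against HCA and by 0.10 (-0.16 to 0.36) in HCA+Se1. The Eif4ebp1 row differed by -0.07 (-0.50 to 0.37) and 0.02 (-0.42 to 0.45), and the Sesn2 row by 0.00 (-0.32 to 0.32) and 0.03 (-0.29 to 0.35). A lowering of the HCA level by selenite of more than 0.50 on the log2 scale lies outside all 6 intervals, while the differences with HCA itself were 1.38 to 1.69. Whether the HCA difference changed with selenite was tested as an interaction. At Se0.1 it differed from that without selenite by -0.11 (-0.49 to 0.26) for Atf4, 0.24 (-0.39 to 0.88) for Eif4ebp1 and 0.19 (-0.27 to 0.66) for Sesn2. At Se1 the values were -0.06 (-0.44 to 0.31), 0.04 (-0.59 to 0.66) and 0.16 (-0.29 to 0.62).

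In edgeR's quasi-likelihood test with Benjamini-Hochberg adjustment over 25588 rows, the 12 values for selenite had unadjusted p = 0.185 to 0.997 and the 6 interactions 0.441 to 0.904, with no adjusted p below 0.99992. In each of these 6 contrasts edgeR called 0 rows (0%). At an unadjusted p under 0.05 it had 1098 rows for Se0.1 against control, 1363 for Se1 against control, 258 for HCA+Se0.1 against HCA, 207 for HCA+Se1 against HCA, and 629 and 594 for the interactions. DESeq2 called 11, 19, 2, 3, 4 and 8 rows in the same order. In simulated data for Se1 against control, edgeR called 4% of 50 rows raised 1.5-fold and 40% of 50 rows raised 2-fold. A count of 0 rows therefore does not show that selenite left the rows unchanged. The contrasts share libraries, so the values are not independent of one another. The median over all rows was 0.12 for Se1 against control, so the Atf4 row's 0.16 there is close to that of the table.

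**Figure D3:**
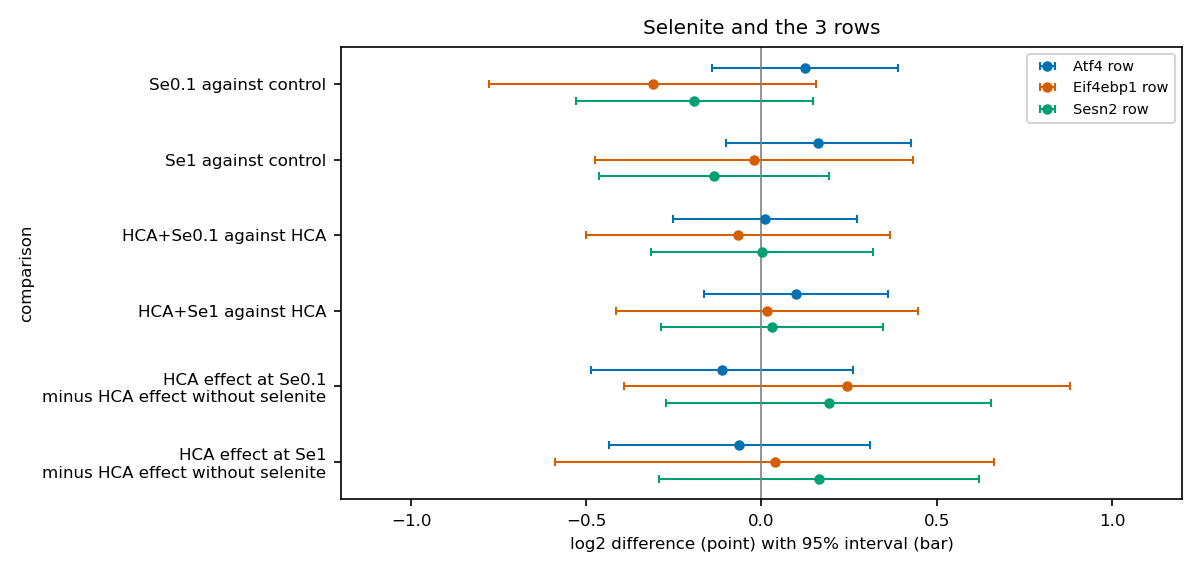
Log2 difference (point) with its 95% interval (bar) for the 3 rows in the 4 comparisons with and without selenite and in the 2 interactions of selenite with HCA. All 18 intervals include 0, and they reach from -0.78 to 0.88.

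The other transcripts of these genes sit in rows shared with other genes, so their own differences with HCA cannot be told apart from those of the other genes. Of 3 other rows with a transcript of Atf4 or Eif4ebp1, 2 were in the table. Eif4ebp1-202, a non-coding transcript of Eif4ebp1, shares a row (deposited symbol Plat) with a coding transcript of Ikbkb, an NF-kappa-B pathway kinase gene. That row rose from 4.86 ± 1.69 (SD, n = 18) to 7.86 ± 1.54 CPM, by 0.66 ± 0.15 (log2, SE; edgeR adjusted p = 0.0126) and in 6 of 6 batches. It did not pass without batch 1, 2 or 4, at an edgeR adjusted p of 0.064, 0.0513 or 0.0573. Atf4-202 shares a row (deposited symbol Upp2) with Pdzd11, Pkp4 and Slc39a11, and that row had 15.8 ± 5.80 CPM without and 20.3 ± 3.36 CPM with HCA, a difference of 0.34 ± 0.16 that did not pass (edgeR adjusted p = 0.383).

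The genes that share the mixed rows were looked at in the same way. For Npr2 and Pcsk1, which share the Atf4 row, 4 other rows were tested, with differences of 0.10 to 0.24, and edgeR called 0 of them against 1.1% of all rows called higher and 0.512% called lower for HCA averaged over selenite levels. For Phactr4, Tnnt3, Pdlim7 and Zscan2, which share the Sesn2 row, 19 other rows were tested, with a median of -0.00 and a highest value of 0.48. Of these, 1 rose, a row (deposited symbol Sox5) with Pdlim7-208 and 8 other coding genes, by 0.48 ± 0.09 (edgeR adjusted p = 0.0022). The highest of these 23 rows had 0.48, against 1.43 and 1.60 for the mixed rows. These rows hold other transcripts of those genes, so they do not measure Npr2-203, Pcsk1-201, Phactr4-202, Tnnt3-212, Pdlim7-206 or Zscan2-204, whose part in the mixed rows was not tested.

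**Figure D4:**
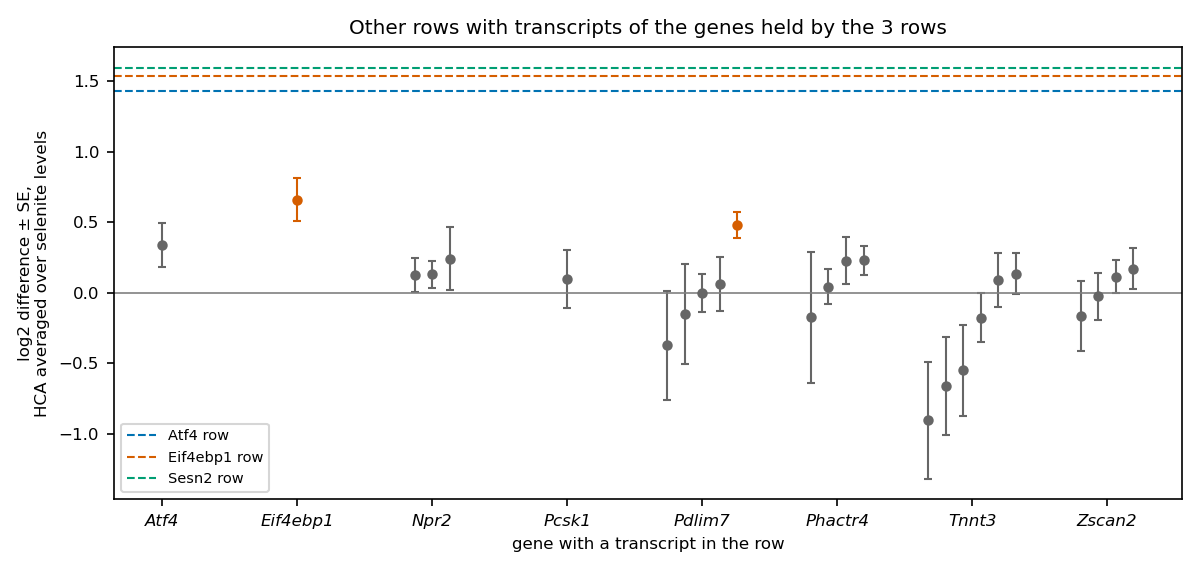
Log2 difference with HCA averaged over selenite levels (point, with SE as bar) of the 25 tested rows that hold another transcript of a gene found in the 3 rows, by gene, with the 3 rows as dashed lines at 1.43, 1.54 and 1.60. Orange points passed edgeR's adjusted p threshold of 0.05, and no point reaches the dashed lines.

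The pathway around the 3 genes was read through genes with a row of their own, that is, a row whose coding transcripts all come from that gene. Such a row can also hold other, non-coding transcripts, whose counts cannot be told apart from those of the gene. The row of Cars, a listed gene, holds 6 transcripts, of which 1 is from Cars. Of 241 listed genes 97 could be measured through such rows. The lists were chosen with earlier results of these data known, so counts of calls in them are descriptive. For HCA averaged over selenite levels, 13 of the 97 rose and 0 fell in edgeR's test at an adjusted p under 0.05, beside 282 higher (1.1%) and 131 lower (0.512%) of all 25588 rows tested. Among the 13 is Fosb, which was at 0 in most libraries without HCA and so passed the filter on low counts through the groups with HCA; without it 12 of 96 rose. Over all genes with a row of their own, 84 of 7129 were called higher. With the size factors of DESeq2 the split over all rows was 266 higher and 209 lower. Without adjustment for multiple tests 3002 rows had p under 0.05. In the 4 comparisons of selenite, edgeR called 0 genes of the lists.

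Among the listed known targets of Atf4, 9 of 18 measured genes rose and 0 fell, with a median of 0.72 beside 0.03 over all rows. The shares over all rows were 1.1% called higher and 0.512% called lower. Because this list was chosen with earlier results known, its count is a description and no test of enrichment. Stc2, a secreted glycoprotein of the stress response (deposited symbol Vmn2r81), rose from 0.70 ± 0.26 to 2.42 ± 0.58 CPM (SD, n = 18), by 1.85 ± 0.16 (log2, SE; edgeR adjusted p = 4.9e-10). Cars, the cysteinyl-tRNA synthetase (Cd164l2), rose from 12.4 ± 2.29 to 30.6 ± 2.72 CPM, by 1.29 ± 0.08 (edgeR adjusted p = 5.2e-14). Shmt2, the mitochondrial serine hydroxymethyltransferase (Inhbc), rose from 22.5 ± 8.77 to 42.6 ± 8.21 CPM, by 0.94 ± 0.14 (edgeR adjusted p = 3.0e-05). All of them were higher in 6 of 6 batches. The other row of Shmt2 had -0.12 and was not called, and the 2 other rows of Cars had -0.15 and 1.38, of which the second was called. Iars, the isoleucyl-tRNA synthetase (Mnd1), rose by 1.04 ± 0.26 (edgeR adjusted p = 0.0271), and this call was lost, with an adjusted p of 0.0520 to 0.161, when batch 1, 3, 4, 5 or 6 was left out. The 3 other rows of Iars ranged from -1.17 to 0.96, none called.

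The remaining Atf4 targets that rose were Aars, an alanyl-tRNA synthetase, by 0.91, Aldh18a1, which makes a proline precursor, by 0.89, Slc3a2, the heavy chain of amino acid transporters, by 0.76, Gpt2, an alanine transaminase, by 0.69, and Ddit4, described with the mTORC1 brakes. Lars, the leucyl-tRNA synthetase, had 0.42 ± 0.14 and did not pass (edgeR adjusted p = 0.120), but passed with the culture batch as a replicate block (0.44, edgeR adjusted p = 0.0309). Mars, the methionyl-tRNA synthetase, had 0.40 ± 0.24 in its row of highest level and did not pass, while 1 of its 2 other rows rose by 1.55. Ddit3, which codes for the stress factor Chop, has no row of its own. It shares 2 tested rows, of which the one shared with Pgbd5 rose by 0.91.

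Upstream of Atf4, 0 of 10 measured genes of the eIF2 branch passed, with a median of 0.07. With 1.1% of all rows called higher and 0.512% called lower, 0 calls would be usual for any list of 10. Eif2ak3, the kinase Perk of the endoplasmic reticulum, had -0.12 ± 0.29, the eIF2B subunit gene Eif2b5 0.11 ± 0.12 and the phosphatase subunit gene Ppp1ca 0.04 ± 0.15. Eif2ak4, which codes for Gcn2, was present in 5 tested rows shared with other genes, with differences of -0.30 to 0.27 and none called. Kinase activity and phosphorylation are outside what these libraries measure.

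Among basic leucine zipper factors, the family from which Atf4 draws its dimer partners, 3 of 12 rose and 0 fell (median 0.34), or 2 of 11 without Fosb (median 0.28). Beside this, 1.1% of all rows were called higher and 0.512% lower. Fosl2, an AP-1 subunit (Rbks), rose from 6.32 ± 2.86 to 17.0 ± 5.26 CPM, by 1.39 ± 0.19 (edgeR adjusted p = 7.6e-06). Nfil3 (C330011M18Rik), a repressor of this family, rose from 15.9 ± 2.44 to 30.3 ± 6.01 CPM, by 0.93 ± 0.09 (edgeR adjusted p = 2.0e-08). The third was Fosb, an immediate early gene, whose row had 0 counts in 16 of 18 libraries without HCA, a highest level there of 0.116 CPM, and a median of 0.33 and highest of 3.49 CPM with HCA, for which no fold is given. Its 3 other rows had 0.18 to 0.27, none called. Atf5, a close relative of Atf4, had 0.10 ± 0.15, Jund 0.40 ± 0.14 and Atf3 0.48 ± 0.29, none of which passed. Atf3 did pass without the 3 libraries that stood apart, at 0.80 (edgeR adjusted p = 0.0045), and with limma voom, at 0.88 (adjusted p = 0.0152).

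The partners of 4E-BP1 in translation initiation did not pass, with 0 of 16 called and a median of 0.16. This count is near the share over all rows, 1.1% called higher and 0.512% called lower. Eif4e, the cap-binding protein that 4E-BP1 sequesters, had 16.4 ± 5.32 CPM without and 17.2 ± 3.62 CPM with HCA, a difference of 0.08 ± 0.14. Eif4b had 0.20 ± 0.11 and the poly(A)-binding protein gene Pabpc1 0.20 ± 0.15. Of the paralogues of Eif4ebp1, Eif4ebp3 had 0.41 ± 0.53 at a highest level of 0.432 CPM, and Eif4ebp2 was present in 2 shared rows, with -0.12 and 0.31, neither of which was called.

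Around Sesn2, 0 of 13 measured genes of the sestrins, the GATOR complexes and the Rag GTPases passed, with a median of 0.02. Here too the count is near the share over all rows (1.1% called higher, 0.512% called lower). Sesn1, its paralogue, had 5.19 ± 1.39 CPM without and 5.30 ± 1.02 CPM with HCA, a difference of 0.04 ± 0.11 with a second row at 0.02. Sesn3 was present in 3 shared rows, with -0.31 to 0.18, none called. The GATOR1 subunit genes Nprl2 and Nprl3 had 0.09 ± 0.11 and 0.33 ± 0.34, and the GATOR2 subunit gene Wdr24, whose complex sestrin 2 binds, had -0.17 ± 0.14.

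In the list of mTORC1 subunits and its other brakes, 2 of 18 rose, 0 fell and the median was 0.13, beside 1.1% called higher and 0.512% called lower over all rows. Ddit4, also called Redd1, a stress-induced brake that acts through the Tsc complex and is itself an Atf4 target (Dnajb12), rose from 14.0 ± 5.04 to 22.3 ± 5.58 CPM. The difference was 0.68 ± 0.13 (edgeR adjusted p = 0.0020). The other was a row with Mtor-201 of the kinase gene Mtor (Olfr77), at 0.64 ± 0.49 CPM without and 1.93 ± 1.39 CPM with HCA, a difference of 1.54 ± 0.38 (edgeR adjusted p = 0.0230). That call was lost without batch 1, 4 or 6, and the other Mtor row had 0.01. Rptor, Rheb and Grb10 had 0.21 ± 0.12, 0.26 ± 0.11 and 0.15 ± 0.13 and did not pass. Tsc1 and Tsc2 were each present in 3 shared rows, between -0.33 and 0.23, with none called.

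Other programmes known to switch on Sesn2 were also read. Over all rows 1.1% were called higher and 0.512% lower, so 0 calls in lists this small say little. Of Nrf2 targets 0 of 7 measured genes passed (median 0.29), with the ferritin heavy chain gene Fth1 at 0.29 ± 0.13 and Gsta4 at 0.02 ± 0.13. Hmox1 was present in 1 shared row, at 0.18. Of p53 targets 0 of 9 passed (median 0.04), with Cdkn1a at 0.40 ± 0.24, Ccng2 at 0.11 ± 0.21 and Btg2 at -0.09 ± 0.11. Mdm2, at 1.77 ± 0.52 from 0.293 CPM without HCA, missed the threshold (edgeR adjusted p = 0.0747) but passed with limma voom, with DESeq2 and without batch 3.

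**Figure D5:**
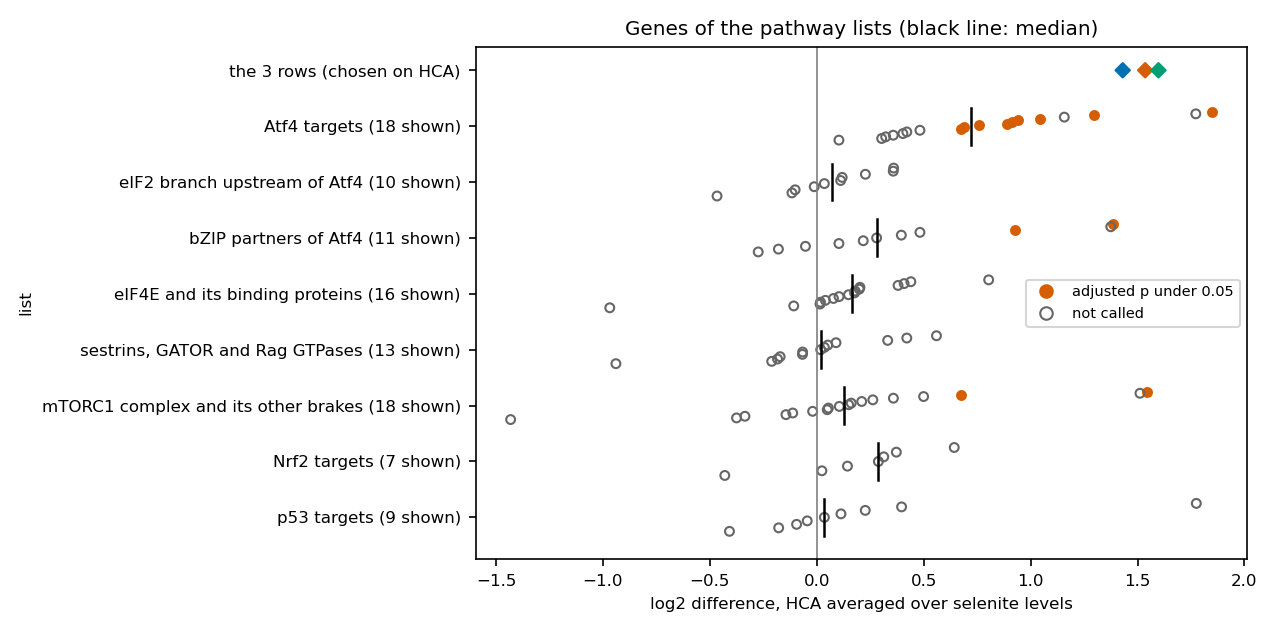
Log2 difference with HCA averaged over selenite levels for each measured gene of the 8 pathway lists, with filled points for genes at an edgeR adjusted p under 0.05 and a black line at the median of the genes drawn; the 3 rows chosen on HCA stand on top as diamonds. Filled points occur among Atf4 targets (9), basic leucine zipper factors (2 drawn, Fosb being left out because 16 of 18 libraries without HCA had 0 counts) and the mTORC1 complex with its other brakes (2, Mtor and Ddit4). Ddit4 is drawn among the Atf4 targets as well.

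The pattern over the 6 conditions was also compared with that of rows whose coding transcripts all come from 1 gene. Likeness was the root mean square distance between the 6 condition means of log2 CPM, each centred on its own mean, over 5022 genes with a mean of at least 1 CPM. The rows themselves lay 0.157 (Atf4 and Eif4ebp1), 0.134 (Atf4 and Sesn2) and 0.0980 (Eif4ebp1 and Sesn2) apart. They were chosen on their difference with HCA, which makes up most of their pattern over the 6 conditions. A small distance between them was therefore built in, and nothing is read from it. Nearest to the Atf4 row were Cars (0.0708), Fosl2 (0.0881) and the potassium channel gene Kcnj3 (0.0897). Nearest to the Eif4ebp1 row were Fosl2 (0.0885), Rasal1 (0.150) and Rhot1 (0.175), and nearest to the Sesn2 row Fosl2 (0.0715), Kcnj3 (0.154) and Zcchc12 (0.154).

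Only Cars and Fosl2 of these had fitted differences with HCA of like size to the rows, 1.29 and 1.39. Kcnj3, Rasal1, Rhot1 and Zcchc12 had fitted differences of 0.79, 0.25, 0.43 and 0.45 that did not pass, and each had 0 counts in 1 to 3 libraries without HCA, so their condition means of log2 CPM rest in part on such libraries. Within groups, the deviations of Cars and the Atf4 row had r = 0.57 over 36 libraries that share depth and batch, while those of Fosl2 had r = 0.11, -0.19 and -0.01 with the Atf4, Eif4ebp1 and Sesn2 rows. These values describe the libraries and carry no test.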

How the data were processed

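RNA was isolated with the miRNeasy kit, depleted of ribosomal RNA with Ribo-Zero Gold and sequenced on a HiSeq instrument, per the labels' protocols. The submitters' processing notes name STAR, Salmon and GRCm38, with no version. The table the authors deposited holds estimated counts per row, although it is described as TPM; its columns sum to 34.3 to 56.9 M. The handling of strand, so of antisense reads, was not given in the sources used here. Of its 27288 identifiers 27094 occur in GENCODE vM21, and contents were assigned by a shift of 1 among 141862 transcripts. A gene was named through a row whose coding transcripts all come from it (9555 rows, 7511 genes), using its row of highest mean CPM.

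Counts were rounded and tested with edgeR 4.0.16 (R 4.3.3; filterByExpr by group, TMM, quasi-likelihood test, all 36 libraries) over 25588 rows with Benjamini-Hochberg adjustment at 0.05. SEs are the log2 difference divided by the root of F. CPM use effective library sizes, and log2 CPM a prior count of 2. Because edgeR bounds its dispersion, a p can exceed what the SE gives. Correlations used 100000 permutations. Alternatives used DESeq2 1.42.0 and limma 3.58.1. The code was tested on simulated data. The same-numbered libraries share a culture batch, per the labels; deviations of same-batch libraries had a median correlation of 0.085, against -0.014 between batches. The test has no block, since no method text sets one. The labels do not say whether libraries of 1 batch came from separate dishes.

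Members, gene lists and tests were chosen with earlier results of these data known. Named genes are, per list, up to 4 called with the largest difference and the 2 uncalled with the highest level, plus paralogues and partners. The other Atf4 targets that rose, the cell type markers named, Mdm2, Jdp2 and Ppp1r15a were added after their values were seen. A result for 1 list gene is not reported here.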

Additional observations from a re-analysis of the deposited data

How the results depend on the processing

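The differences of the 3 rows with HCA stayed between 1.25 and 1.83 over 177 values from the alternatives run (other size factors, DESeq2, limma voom, no filter or a stricter one, the compared groups alone, ribosomal RNA rows or 3 libraries left out, each batch left out, and the replicate block), each within the spread over batches. With the culture batch as a replicate block they were 1.43, 1.51 and 1.60 on average for Atf4, Eif4ebp1 and Sesn2, and 571 rows were called for HCA averaged over selenite levels against 413 without the block; 15 list genes rose with the block, Lars and Jdp2 being added, and no other call of a named gene changed. In 270 alternative values for selenite and the interactions the lowest adjusted p was 0.830 and the log2 values lay between -0.39 and 0.41; 78 uncalled values changed sign, all of results at most 0.17 in size.

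Counts moved more. For HCA averaged over selenite levels DESeq2 called 1068 rows (507 higher and 561 lower), edgeR without the 3 libraries that stood apart 617, and edgeR without 1 batch 186 (without batch 1) to 424; without batch 2, 4 or 6 it was 261, 259 or 252. DESeq2 called 11 rows for Se0.1 against control, 19 for Se1 against control, 2 for HCA+Se0.1 against HCA, 3 for HCA+Se1 against HCA, and 4 and 8 for the interactions at Se0.1 and Se1. Leaving out 1 batch gave 0 to 5 rows for Se0.1 against control and 0 to 11 for Se1 against control, the highest without batch 3. Of the pathway lists, 5 of 53 genes rose when only identifiers with 1 transcript were used (fewer genes tested), and 45 of 677 rows rose and 1 fell when any row with a coding transcript of a list gene counted; without the 3 libraries that stood apart Atf3 and Ppp1r15a rose besides the 13. The cause of the other changes was not tested. The Eif4ebp1 row had the fewest counts, 3.06 in its thinnest library.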
